A study of Mus musculus with 22 samples.

Results

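The 8 genes described here were measured in the mouse anterior cingulate cortex (ACC). They were the neurotrophin genes Bdnf and Ntf3, the Trk receptor genes Ntrk2 and Ntrk3, the sorting receptor genes Sort1, Sorcs1 and Sorcs3, and Vgf, a neuropeptide precursor gene. They were chosen by name from the 37786 genes in the count table, and all 8 passed the count minimum used for testing. The study asked how repeated activation of the projection from the basolateral amygdala (BLA) to the ACC changes gene expression in the ACC. All mice were adult wild-type C57BL/6J males, 8 weeks old at the start and singly housed after the fiber was implanted, and all received in the BLA of both hemispheres an AAV5 virus that drives ChR2(H134R), a light-gated cation channel, fused to EYFP from the CaMKIIa promoter, and an optic fiber over the ACC of 1 hemisphere. The 10 stimulated mice received blue light in 9 sessions of 20 minutes, on 3 days in each of 3 weeks, and the 12 control mice went through the same sessions with the light off. Bilateral ACC was dissected 48 hours after the last session, so the tissue holds the hemisphere with the fiber and the other hemisphere together. The CaMKIIa promoter restricts the channel largely to excitatory neurons, and light over the ACC reaches the axons of those BLA neurons. Each library was made from 5 ng of RNA of bulk tissue and represents 1 mouse.

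Neurotrophins are small secreted proteins that are made as longer proneurotrophins and cut into mature dimers. The mature forms act on Trk receptor tyrosine kinases, BDNF on TrkB (Ntrk2) and NT-3 mainly on TrkC (Ntrk3), and support survival, dendrite growth and synaptic plasticity in the cortex. Sortilin (Sort1) and the related SorCS proteins (Sorcs1, Sorcs3) are membrane receptors that sort cargo between the Golgi, endosomes and the cell surface. Sortilin also binds proneurotrophins together with the p75 receptor (Ngfr), and SorCS receptors are known to act on the trafficking of TrkB and of synaptic receptors. Vgf is induced by neurotrophins in cultured neurons and is packed into the same regulated secretory pathway as BDNF.

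Bdnf transcription in neurons is known to be started from several promoters, and calcium-responsive elements near one of them are a textbook case of activity-dependent transcription. RefSeq on GRCm38.p6 gave 7 start windows for Bdnf, 2 for Ntf3 and 1 each for Ntrk2, Sorcs1 and Sorcs3, while Ntrk3, Sort1 and Vgf were not matched. Each window was read for 250 bases upstream of the start and searched on both strands for TGACGTCA (the cAMP response element), its core TGACG, which lies inside the longer motif, the E-box CACGTG and TATAAA. The core TGACG was found in 1 of the 7 Bdnf windows, with its first base 35 bases before the start, and in 17.8% of the 32851 promoters in the table. An E-box was found in 1 Ntf3 window and in 6.02% of promoters. None of the 12 windows held TGACGTCA or TATAAA, which were present in 1.55% and 12.4% of promoters. The Bdnf window with the core is shown because the gene counts add up transcripts from all 7 starts and cannot say which start was used, and those of Sorcs1 and Sorcs3 because these paralogs had levels that followed each other across mice. The capitals mark the core, read here on the opposite strand.
Bdnf, chr2:109692186-109692435, plus strand: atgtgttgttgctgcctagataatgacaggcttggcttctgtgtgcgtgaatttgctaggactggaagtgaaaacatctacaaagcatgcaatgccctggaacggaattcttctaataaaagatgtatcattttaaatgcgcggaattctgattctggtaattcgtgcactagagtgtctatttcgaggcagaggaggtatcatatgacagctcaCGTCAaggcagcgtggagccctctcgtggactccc
Sorcs1, chr19:50678647-50678896, minus strand: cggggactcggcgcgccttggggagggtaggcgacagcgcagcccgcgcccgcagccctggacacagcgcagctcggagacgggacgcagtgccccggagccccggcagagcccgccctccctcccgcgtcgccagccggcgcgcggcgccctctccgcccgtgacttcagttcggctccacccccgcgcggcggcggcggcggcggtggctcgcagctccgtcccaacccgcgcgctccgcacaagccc
Sorcs3, chr19:48205775-48206024, plus strand: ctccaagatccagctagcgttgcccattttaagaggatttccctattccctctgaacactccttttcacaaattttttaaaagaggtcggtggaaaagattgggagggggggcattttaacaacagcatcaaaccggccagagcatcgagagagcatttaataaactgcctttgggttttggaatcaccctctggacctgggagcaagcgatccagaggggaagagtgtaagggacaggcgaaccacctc
The windows of both paralogs lie on chromosome 19 and differ in base composition, with a GC content of 79.6% and 41 CpG sites for Sorcs1 and of 48.4% and 6 CpG sites for Sorcs3. The Bdnf window had a GC content of 45.6%. A match describes letters in the window and was not tested as a binding site.

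The libraries held between 23090483 and 43668462 counts. The sample labels carry a library number, and the numbers form a first run from 1 to 11 (6 controls, 4 stimulated mice) and a second run from 12 to 23 (6 controls, 6 stimulated mice). The study made 2 batches of mice for sequencing, and the labels used here do not say which mouse was in which. The study lists the batch and the RNA integrity of each sample, and that list was not used here, so the run stands in for the batch, and whatever else differed between the runs cannot be told apart from it. Mitochondrial transcripts took a median of 2.21% of counts in numbers 1 to 11 and 1.12% in numbers 12 to 23. Controls 1 to 3 stood apart with mitochondrial shares of 4.41%, 4.81% and 3.04%, against 1.63% to 2.80% in the other 7 mice of their run. Controls 9 and 11 stood apart in a list of 10 oligodendrocyte markers, whose summed level was 19861 and 14613 CPM (counts scaled to a common library size after TMM normalization), against 2368 to 6334 in all other mice. Pyramidal neuron markers such as Slc17a7 and Camk2a were present in every library, as the labelled tissue would have them, with summed levels of 3146 to 3908 CPM in the first run and 4818 to 7809 in the second. In bulk tissue, fewer cells of a type and less RNA per cell cannot be told apart.

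Levels between genes were compared per length, as RPKM (CPM divided by the exon length in kilobases), within each run. In numbers 1 to 11 the highest mean was that of Vgf (28.6 RPKM ± 5.52, SD, n = 10), followed by Ntrk2 (23.5 ± 2.59) and Sort1 (22.5 ± 2.61), whose ranges overlapped, and Ntrk2 was above Sort1 in 4 of the 10 mice. A gap separated these from Bdnf (8.30 ± 1.5), which lay below Sort1 in every mouse with no overlap of ranges. Sorcs3 followed at 5.22 ± 1.26, Ntrk3 at 2.95 ± 0.52, Sorcs1 at 2.51 ± 0.38 and Ntf3 at 2.20 ± 0.44, each with a range that overlapped its neighbour's. In numbers 12 to 23 the order of the top 3 was Sort1 (55.6 RPKM ± 6.67, n = 12), Vgf (50.4 ± 7.91) and Ntrk2 (37.2 ± 3.54), and Ntf3 was again the lowest (1.08 ± 0.36), now with no overlap with Ntrk3 above it (3.13 ± 0.51). These levels add up all isoforms of a gene, so full-length and truncated TrkB or TrkC, which differ in their kinase domain, are counted together. The length merges all annotated exons of a gene, 30170 bases over 20 transcripts for Ntrk3 and 1714 bases over 3 for Ntf3. The order of genes depends on this length. In CPM, Ntrk3 (mean 89.0) lay above Bdnf (51.6) and Ntf3 (3.76) in numbers 1 to 11.

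**Figure D1:**
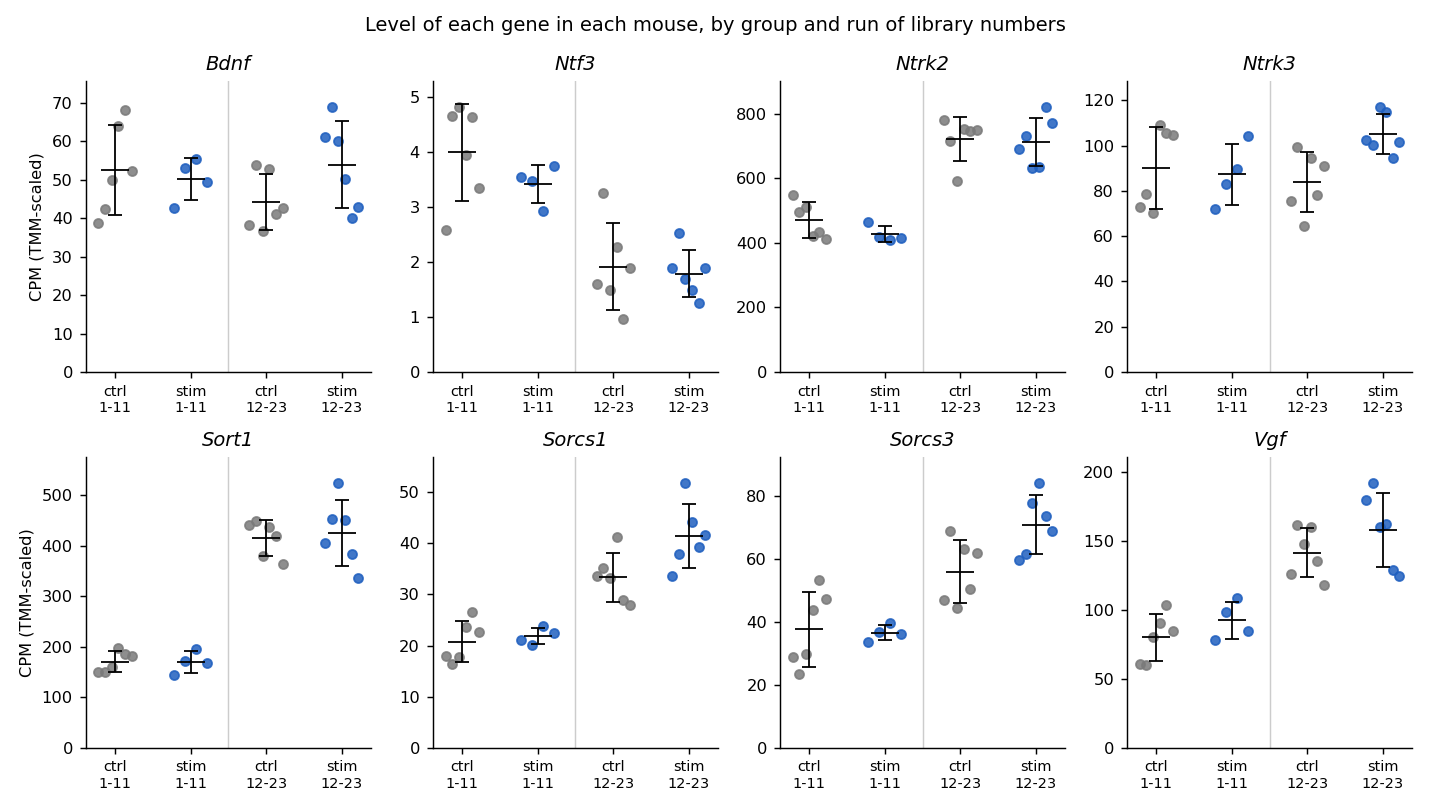
Level of each gene in each mouse in CPM on the vertical axis, which starts at 0, for controls (gray) and stimulated mice (blue) of library numbers 1 to 11 and 12 to 23 on the horizontal axis. Each point is a mouse and the black bars are mean ± SD. The runs separate for Ntrk2, Sort1, Sorcs1 and Vgf, and in numbers 12 to 23 the stimulated mice lie from 94.7 to 116.8 CPM for Ntrk3, mostly above the controls.

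Bdnf lies on chromosome 2 (GRCm38, 109674700 to 109727007, plus strand) and had 976 to 2561 counts per library. Within the first run it ranged from 38.7 over a median of 51.0 to 68.0 CPM in the 6 controls, and the 4 stimulated mice had 42.7, 53.1, 55.4 and 49.5 CPM. Within the second run the controls ranged from 36.8 over 41.8 to 53.9 CPM and the stimulated mice from 40.1 over 55.2 to 68.8 CPM. The stimulated mice sat inside the control range in the first run, and 3 of 6 sat above every control in the second. Across all mice the log2 fold change, stimulated against control, was 0.13 (SE 0.11, 95% interval -0.10 to 0.36), with an unadjusted p of 0.256 and an adjusted p of 0.664 in the edgeR quasi-likelihood fit with the run as a covariate. An antisense gene, Gm45346, shares 896 exon bases with Bdnf, and the sources used here do not say whether strand was used in counting. That gene had 50 counts over all 22 libraries together.

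Ntf3, the NT-3 gene on chromosome 6 (126101412 to 126166910, minus strand), was the gene with the fewest reads, 25 to 174 per library. At the lowest count, 25 in control 11, the 95% Poisson interval is 16.2 to 36.9 counts, and it covers counting error only. Among mice of the first run the controls ranged from 2.59 over 4.28 to 4.80 CPM and the stimulated mice had 3.54, 3.47, 2.92 and 3.74 CPM. All 4 stimulated mice were below the control median, but none was below every control. For mice of the second run the controls ranged from 0.96 over 1.74 to 3.26 CPM and the stimulated mice from 1.26 over 1.78 to 2.52 CPM, and the groups overlapped throughout. The log2 fold change was -0.15 (SE 0.17, interval -0.50 to 0.19, edgeR adjusted p = 0.738).

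Among the receptors, Ntrk2 (chromosome 13, 58806569 to 59133970, plus strand) was read most often, with 13871 to 27927 counts per library. Its level in numbers 1 to 11 was 412 over 466 to 549.5 CPM in controls, and 465, 419, 408 and 416 CPM in the stimulated mice. In numbers 12 to 23 it was 590.4 over 749 to 780.4 CPM in controls and 632 over 710.3 to 819 CPM in stimulated mice. The stimulated mice lay low in the first run, none above the control median, and spread across the control range in the second. Controls 1 to 3 had the highest levels of their run (549.5, 497 and 511 CPM). The log2 fold change was -0.07 (SE 0.07, interval -0.21 to 0.07, edgeR adjusted p = 0.684), so a difference in either direction larger than 0.21 on the log2 scale lies outside the interval.

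Ntrk3, the TrkC gene (chromosome 7, 78175959 to 78738012, minus strand), had 1930 to 4322 counts per library. In numbers 1 to 11 the controls formed a low set, controls 1 to 3 with 72.8, 78.8 and 70.2 CPM, and a high set, controls 4 to 6 with 109.1, 105.7 and 104.5 CPM. The 4 stimulated mice of that run had 72.1, 83.0, 89.7 and 104.2 CPM and lay between and within these. Within the second run the controls ranged from 64.5 over 84.5 to 99.6 CPM and the stimulated mice from 94.7 over 102.0 to 116.8 CPM. Of these 6 stimulated mice, 5 were above every control of the run and all 6 were above the control median. The log2 fold change over all mice was 0.16 (SE 0.10, interval -0.04 to 0.36, p = 0.109, edgeR adjusted p = 0.53).

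The first of the sorting receptors, Sort1 (chromosome 3, 108284082 to 108361511, plus strand) had 4255 to 16367 counts per library. Within the first run it ranged from 149.8 over 170.4 to 198.5 CPM in controls and measured 143.6, 171.4, 196.4 and 167.8 CPM in stimulated mice. Among mice of the second run it ranged from 364 over 429 to 449.9 CPM in controls and from 336 over 428 to 524 CPM in stimulated mice. The group medians were nearly the same in each run, and the log2 fold change was 0.02 (SE 0.07, interval -0.14 to 0.17, edgeR adjusted p = 0.955), the smallest in size of the 8 genes. Sort1 shares 338 exon bases with the antisense gene Gm12523, which had 25 counts in all.

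Sorcs1 (chromosome 19, 50143299 to 50678646, minus strand) had 465 to 1355 counts per library. Its controls in numbers 1 to 11 ranged from 16.4 over 20.3 to 26.5 CPM, and the stimulated mice had 21.0, 20.1, 23.8 and 22.5 CPM, inside the control range. In numbers 12 to 23 the controls ranged from 27.9 over 33.5 to 41.2 CPM and the stimulated mice from 33.5 over 40.5 to 51.8 CPM. All 6 stimulated mice of that run were above the control median and 3 were above every control. Sorcs1 was the gene of the 8 with the smallest unadjusted p for stimulation, with a log2 fold change of 0.21 (SE 0.09, interval 0.02 to 0.40, p = 0.0324, edgeR adjusted p = 0.40), and it ranked 1420 of 17524 genes by p. It did not pass the adjustment, and its unadjusted p rose above 0.05 when control 2, 11 or 12 or stimulated mouse 7 or 8 was left out, with p-values from 0.00821 to 0.0754 over the 22 fits without 1 mouse. The antisense gene Gm45352, with 10 counts in all, shares 213 of its exon bases.

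Sorcs3 (chromosome 19, 48206025 to 48805505, plus strand) had 661 to 2526 counts per library. As for Ntrk3, controls 1 to 3 were low (28.9, 23.3 and 29.8 CPM) and controls 4 to 6 high (43.6, 53.1 and 47.1 CPM), with the stimulated mice of the run between them at 33.7, 36.7, 39.6 and 36.0 CPM. Within the second run the controls ranged from 44.4 over 56.1 to 68.9 CPM and the stimulated mice from 59.6 over 71.3 to 83.9 CPM, all above the control median and 3 of 6 above every control. The log2 fold change was 0.17 (SE 0.12, interval -0.08 to 0.43, edgeR adjusted p = 0.586). The genes Sorcs1 and Sorcs3 lie on the same chromosome and do not overlap.

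Vgf (chromosome 5, 137026392 to 137033351, plus strand), with 1697 to 7271 counts per library, stood for the regulated secretory pathway. Among mice of the first run the controls ranged from 59.7 over 82.6 to 103.8 CPM, and the stimulated mice had 78.2, 98.4, 108.4 and 84.8 CPM, 3 of them above the control median. Among mice of the second run the controls ranged from 117.9 over 141.8 to 161.9 CPM and the stimulated mice from 124.3 over 161.4 to 192.0 CPM. Stimulated mice occupied both ends of that run, with 180.0 and 192.0 CPM at the top and 124.3 and 128.9 CPM near the bottom. The log2 fold change was 0.18 (SE 0.10, interval -0.02 to 0.38, p = 0.0741, edgeR adjusted p = 0.479).

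Set against all genes, none of the 8 passed an adjusted p of 0.05 for stimulation, and the share of all 17524 genes past it was 0%, in edgeR. At an unadjusted p under 0.05, 1 of 8 was called, Sorcs1, which was higher in stimulated mice, where 6.05% of all genes were called higher and 5.45% lower, 11.5% in either direction. DESeq2 with the run called 33 genes and limma voom 1 gene at an adjusted p under 0.05, and none of the 8 in either. Estimates were above 0 for 6 of the 8 genes (Bdnf, Ntrk3, Sort1, Sorcs1, Sorcs3 and Vgf), with a median log2 fold change of 0.14 against 0.01 over all genes tested. In numbers 1 to 11 alone 3 were above 0 and 5 below, with a median of -0.033, and without controls 9 and 11 the median was 0.08. Without the run as a covariate the intervals of the genes that differ between runs widened, to -0.42 to 0.70 for Sort1 and -0.07 to 0.69 for Sorcs1, and 0 of 8 were called at an unadjusted p, against 3.61% of all genes.

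**Figure D2:**
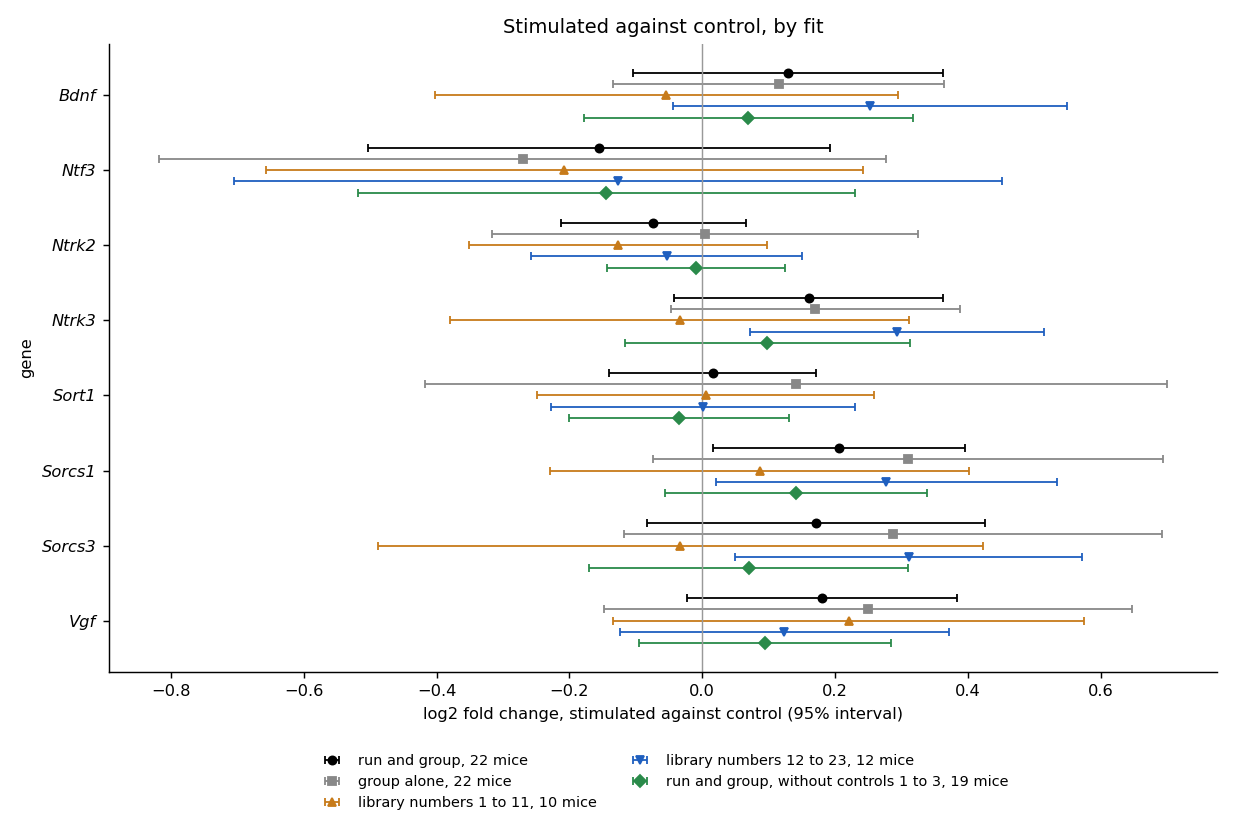
Log2 fold change, stimulated against control, with its 95% interval on the horizontal axis, for each gene on the vertical axis under 5 fits. In the fit with run and group only the interval of Sorcs1 (0.02 to 0.40) leaves out 0, and its estimate without controls 1 to 3 is 0.14.

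Each run was also fitted alone. In numbers 1 to 11, 0 of 8 were called at an unadjusted p under 0.05 by edgeR, against 5.56% of all genes. In numbers 12 to 23, 3 of 8 were called, against 12.4% of all genes, and all 3 were higher in stimulated mice. They were Ntrk3 (log2 fold change 0.29, interval 0.07 to 0.52, p = 0.00917), Sorcs3 (0.31, interval 0.05 to 0.57, p = 0.0173) and Sorcs1 (0.28, interval 0.02 to 0.53, p = 0.0287), with edgeR adjusted p-values of 0.290 to 0.357. Bdnf was at 0.25 in that run (interval -0.04 to 0.55, p = 0.0759). The difference between the runs was tested as an interaction, and 0 of 8 were called at an unadjusted p, against 8.01% of all genes. The smallest interaction p was that of Ntrk3, with a difference of 0.37 on the log2 scale (interval -0.01 to 0.76, p = 0.0520, edgeR adjusted p = 0.627), so the runs were not shown to differ.

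The estimates for these genes, apart from Ntf3, moved with controls 1 to 3. Leaving these 3 mice out of the fit over both runs brought the log2 fold change of Sorcs1 to 0.14, Ntrk3 to 0.10, Vgf to 0.09, Bdnf and Sorcs3 to 0.07 and Sort1 to -0.04. Ntrk2 went from -0.07 to -0.0089, and Ntf3 stayed near its value, at -0.14 against -0.15. In numbers 1 to 11 alone without them the log2 fold change was -0.39 for Sorcs3, -0.28 for Ntrk3, -0.29 for Bdnf and -0.14 for Sorcs1, with 3 controls left, where the same genes were above 0 in numbers 12 to 23. These 3 mice were set aside after their levels had been seen, and they were the lowest controls of the run for all 4 genes, so the estimates without them are given as a description. Controls 1 to 3 also held summed astrocyte markers of 6005 to 7628 CPM, against 3755 to 4005 CPM in controls 4 to 6. The 4 stimulated mice of the run held 4440 to 6016 CPM, and stimulated mouse 1, the highest of them, lay above control 3. All 8 genes of that list were lower in stimulated mice across both runs, none at an unadjusted p under 0.05. The part of mitochondrial share or astrocyte RNA in the differences was not tested, apart from a fit with the mitochondrial share as a covariate, in which 0 of 8 were called, against 10.6% of all genes. In that fit Sorcs1 was at 0.14 (p = 0.0889), Ntrk3 at 0.10, Vgf and Sorcs3 at 0.07, Bdnf at 0.04 and Sort1 at -0.048. Ntrk2 was at -0.013 and Ntf3 at -0.18.

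The run difference was larger in size than the group difference for 6 of the 8 genes, all but Bdnf and Ntrk3. In the same edgeR fit, 6 of 8 genes differed between numbers 12 to 23 and 1 to 11 at an adjusted p under 0.05, against 68.1% of all genes, so the share is close to that of all genes. Sort1 was 2.47-fold higher in the second run (log2 fold change 1.30, SE 0.08, adjusted p = 1.4e-13), a difference larger in size than that of 95.01% of genes. Vgf (0.80), Sorcs1 (0.79), Sorcs3 (0.74) and Ntrk2 (0.67) were higher too, with adjusted p-values from 2.0e-09 for Ntrk2 to 8.1e-06 for Sorcs3. Ntf3 was at -1.003 on the log2 scale, lower in the second run (adjusted p = 6.7e-06), and 11 of the 12 mice of the second run were below every mouse of the first. Bdnf (-0.09, adjusted p = 0.468) and Ntrk3 (0.06, adjusted p = 0.598) were not called. For 4 of the 8 genes, Ntrk2, Sort1, Sorcs1 and Vgf, the ranges of the runs did not overlap, which held for 26.1% of all genes, and for Sorcs3 9 of 12 mice of the second run were above every mouse of the first. The relatives Sorl1 (1.30, adjusted p = 7.7e-12) and Sorcs2 (1.45, adjusted p = 5.4e-15) were higher as well, so that all 5 sortilin family genes were higher in the second run. Of all 17524 genes, 48.4% were above 0 in this comparison, and 6082 were higher at an unadjusted p under 0.05.

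**Figure D3:**
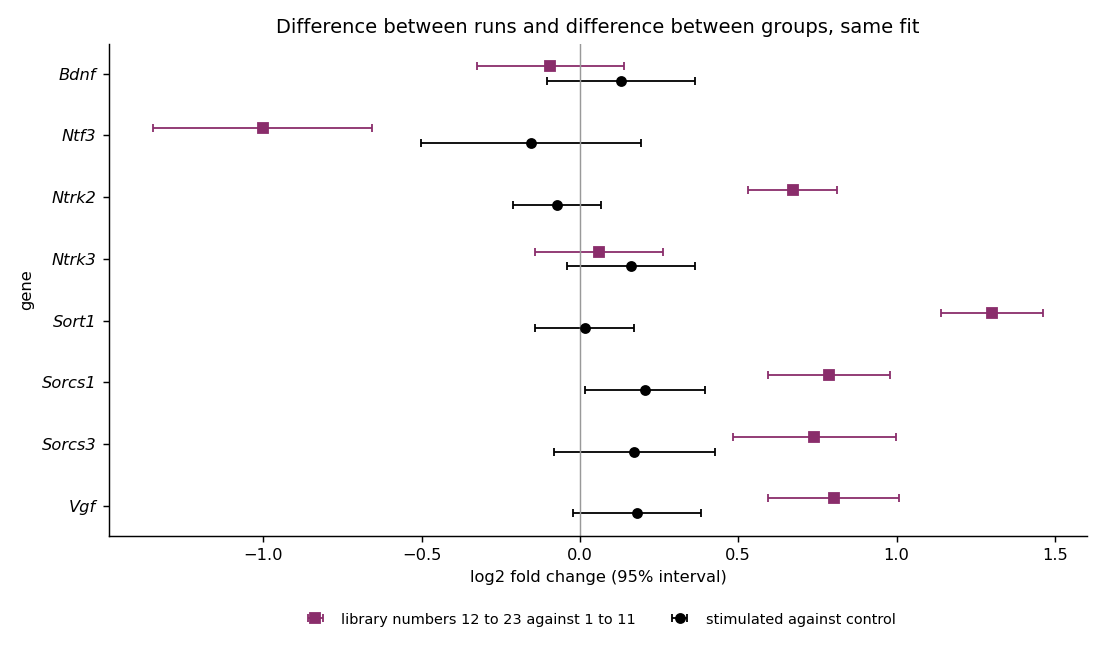
Log2 fold change with its 95% interval on the horizontal axis for each gene on the vertical axis, for library numbers 12 to 23 against 1 to 11 (purple squares) and for stimulated against control mice (black circles) from the same fit of 22 mice. The run difference is 1.30 for Sort1 and -1.003 for Ntf3, while the group differences lie between -0.15 and 0.21.

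Other measures moved with the run. Over 17516 genes with an exon length, longer genes were higher in the second run (Spearman rho of exon length and the run log2 fold change 0.62, across genes, which are not independent replicates), against -0.14 for the stimulation log2 fold change. All 4 oligodendrocyte progenitor markers were higher in the second run, with summed levels of 68.5 to 84.7 CPM in numbers 1 to 11 and 167 to 262 CPM in numbers 12 to 23. Their part, and that of the mitochondrial share, in the run differences of the 8 genes was not tested. Among the 8 genes, Ntf3 has the shortest exonic length (1714 bases) and was the only one called lower, while Ntrk3, the longest (30170 bases), was not called.

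Ratios of ligand to receptor and between receptors do not depend on the scaling of a library. Labels were exchanged within the runs over all 194040 relabellings, in a two-sided exact permutation test of 5 ratios. The log2 ratio of Ntrk2 to Ntrk3 was 2.76 ± 0.50 (SD, n = 12) in controls and 2.58 ± 0.35 (n = 10) in stimulated mice, a within-run difference of -0.24 (exact permutation p = 0.0939, adjusted over the ratios 0.192). The ratio of Bdnf to Ntrk2 differed by 0.20 (exact p = 0.199) and that of Bdnf to Ntf3 by 0.23 (exact p = 0.113). For Ntf3 to Ntrk3 the difference was -0.27 (exact p = 0.115) and for Bdnf to Sort1 0.12 (exact p = 0.166). None of the 5 passed, and the adjusted values lay between 0.192 and 0.199.

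Levels of some of the 8 genes were correlated across mice of a run. Correlations of log2 CPM were computed for 28 pairs in each run, with permutation p-values from 100000 resamples adjusted over all 56. Within the first run, 19 of 28 pairs passed an adjusted p of 0.05, each with a size of r of at least 0.74, which 6.81% of pairs among all tested genes reached in that run, and Ntrk2 was negatively related to the others in each pair that passed. Sorcs1 and Sorcs3 had the closest relation (Pearson r = 0.94, Spearman rho = 0.90, n = 10, permutation p = 5e-05, adjusted 0.00196, r = 0.88 without the 2 mice farthest from the median of Sorcs1). Within the second run 5 pairs passed, each with a size of r of at least 0.66, which 7.67% of all pairs reached. All 5 also passed in the first run with the same sign, but with values centred on the group means 3 pairs passed in the second run and 2 in both. They were Bdnf with Ntrk3 (r = 0.71, permutation adjusted p = 0.0317, n = 12) and with Vgf (r = 0.85, permutation adjusted p = 0.0150), Ntrk3 with Sorcs1 (r = 0.66, permutation adjusted p = 0.0448) and with Sorcs3 (r = 0.92, permutation adjusted p = 0.00196), and Sorcs1 with Sorcs3 (r = 0.69, permutation adjusted p = 0.0349). Ntf3 entered none of the pairs that passed in either run. Without controls 1 to 3, 0 of 28 pairs passed in the remaining 7 mice of the first run, with 4 at an unadjusted permutation p under 0.05. The median r over the 28 pairs was then 0.50, against 0.65 with all 10 mice, and fewer mice also leave fewer pairs that can pass.

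The levels were also set against measures of the libraries. Among mice of the first run, 7 of 8 genes were correlated with the mitochondrial share at an adjusted permutation p under 0.05 (adjusted over 48 relations), each with a size of r of at least 0.71, which 27.6% of all tested genes reached. Sorcs3 had r = -0.91 (rho = -0.98, permutation adjusted p = 0.00048, n = 10, r = -0.90 without the 2 mice farthest from the median share) and Vgf r = -0.91 (rho = -0.84, permutation adjusted p = 0.00712, r = -0.65 without the 2). Ntrk2 went the other way with r = 0.86 (rho = 0.73, permutation adjusted p = 0.0105, r = 0.83 without the 2). Among mice of the second run, 1 of 8 passed, Vgf with r = -0.82 (rho = -0.83, permutation adjusted p = 0.00822, n = 12, r = -0.70 without the 2), a size that 2% of all genes reached. Ntrk3 and Sorcs3, the closest pair of that run, each had r = -0.34 with the share there (-0.54 and -0.56 without the 2). The summed astrocyte markers gave 7 of 8 in the first run, at a size of r that 15.9% of all genes reached, and 3 of 8 (Ntrk2, Sort1 and Vgf) in the second, at a size that 19% reached, and the total count of a library gave none in either.

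**Figure D4:**
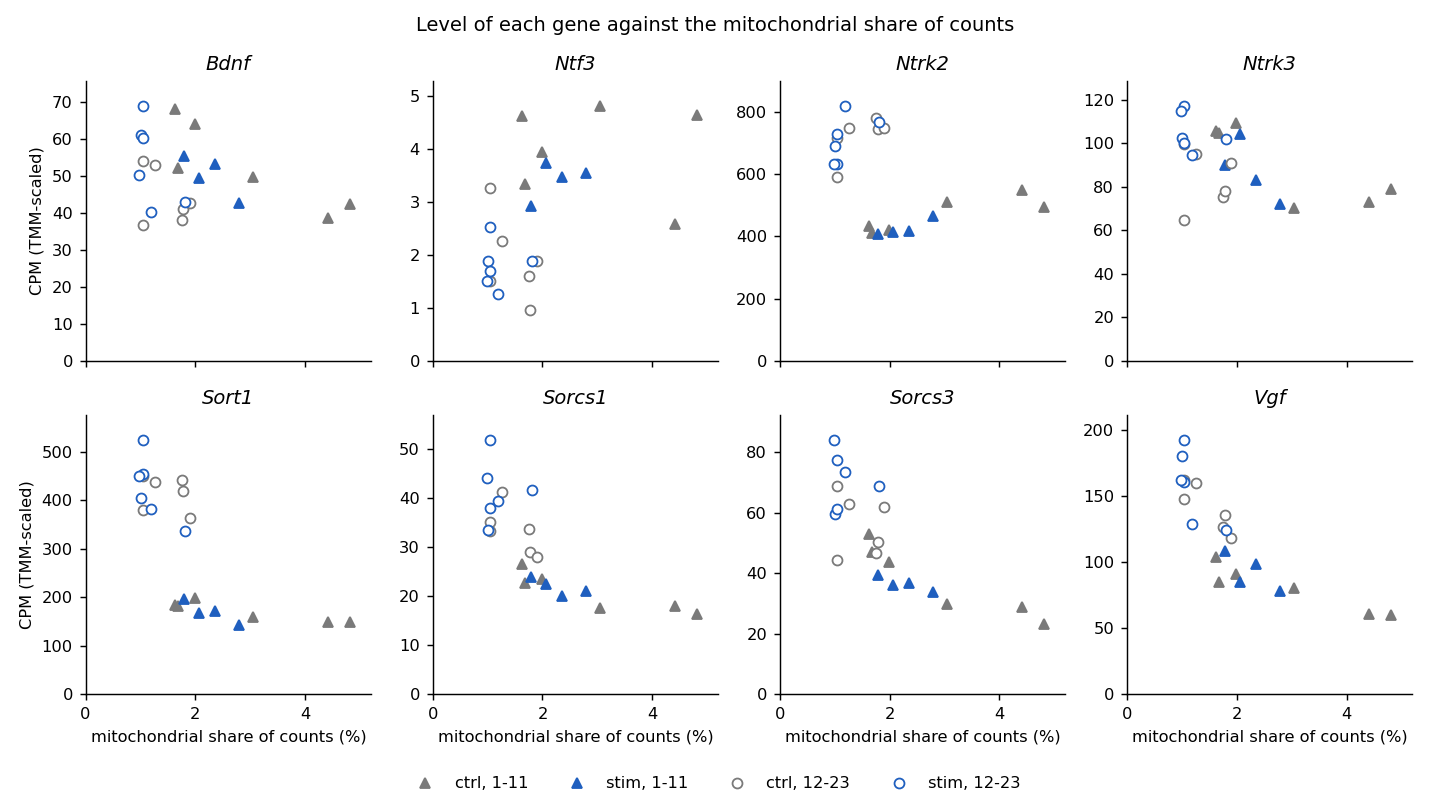
Level of each gene in CPM on the vertical axis, which starts at 0, against the percentage of counts from mitochondrial transcripts on the horizontal axis, 1 point for each mouse (gray controls, blue stimulated mice, triangles for library numbers 1 to 11, open circles for 12 to 23). In numbers 1 to 11 the mice with shares above 3% are controls 1 to 3, which are low for Ntrk3, Sorcs3 and Vgf and high for Ntrk2.

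The genes most like each of the 8 were listed by the mean of the 2 within-run Pearson r values over 10 and 12 mice, as a description. Bdnf was followed most closely by Inka2 (mean r 0.92), Zdhhc14 (0.92) and Dusp14 (0.91), and Vgf by Dnajb1 (0.94), Nab2 (0.93) and Bhlhe40 (0.92). Ntrk2 went with Camk2a (0.91), the gene of a kinase abundant in excitatory synapses, Shc3 (0.91) and Zfp365 (0.90), and Ntrk3 with Grin2b (0.94), an NMDA receptor subunit gene, and Astn1 (0.92). For the sorting receptors they were Arhgap20 (0.91), Ppp1r12a (0.89) and Fbxo42 (0.89) for Sort1, Celsr2 and Plxna4 (0.85 each) for Sorcs1, and Pgam5, Sprn (0.87 each) and L1cam (0.86) for Sorcs3. Ntf3, with the fewest counts, had the lowest values, 0.75 for Glra3, 0.72 for Dr1 and 0.71 for Caap1.

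Around these genes, 133 further genes of the pathway were listed by role, and 127 of them were tested. Of these, 78 were higher and 49 lower in stimulated mice, 17 and 5 at an unadjusted p under 0.05, where 6.05% and 5.45% of all genes were, and 0 at an adjusted p by edgeR (1 by DESeq2), with a median log2 fold change of 0.03. Of the rest of the family, Sorcs2 (-0.09, p = 0.225) and Sorl1 (0.09, p = 0.327) were tested, while Ntf5 and Ngfr, the genes of NT-4 and the p75 receptor, stayed under the count minimum with at most 23 and 19 counts per library. In the list of proneurotrophin processing and release, 13 of 16 were tested and 1 was called, Pcsk1, a prohormone convertase gene, at -0.25 (p = 0.0149, edgeR adjusted p = 0.354), with Pcsk2 at 0.18 (p = 0.0634). Of 41 Trk adaptors and kinases, 4 were called higher and 4 lower, led by Hras (0.18, p = 0.000824, edgeR adjusted p = 0.313) and Gab2 (-0.19, p = 0.00670). The counts were 1 and 0 with group alone, 0 and 2 in numbers 1 to 11 alone and 4 and 4 in numbers 12 to 23 alone.

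For the next lists too, the edgeR fit with the run called 6.05% of all genes higher and 5.45% lower. Of 10 partners of the p75 receptor, 3 were called higher and 0 lower (1 and 0 with group alone). Bex3 was at 0.22 (edgeR p = 0.00338) and Rtn4r, a Nogo receptor gene, at 0.23 (edgeR p = 0.0116). Of 18 genes of the sortilin sorting machinery, 3 were called higher and 0 lower (0 and 0 with group alone, 1 and 1 without controls 9 and 11, 0 and 2 in numbers 1 to 11 alone), among them Lrpap1 (0.15, p = 0.0242), a receptor chaperone gene, and Gga2 (0.16, p = 0.0400), an adaptor gene that binds sortilin tails. Of 18 genes of dense core vesicle cargo, 6 were called higher and 0 lower, with a median log2 fold change of 0.09. Ptprn was at 0.26 (edgeR p = 0.00168) and the cholecystokinin gene Cck at 0.26 (edgeR p = 0.00450). For this list the counts were 2 and 0 with group alone and 6 and 0 without controls 9 and 11. They were 4 and 0 in numbers 1 to 11 alone and 3 and 0 in numbers 12 to 23 alone. Of 25 ERK feedback and Trk-induced genes, 1 was called, Nptx2 (0.29, p = 0.0200), with Junb at 0.34 (p = 0.0573). All of these have edgeR adjusted p-values above 0.3, and the fit with group alone called 4 pathway genes higher and 0 lower. Of all 17524 genes, 175 were called higher and 457 lower with group alone, and 833 and 597 without controls 9 and 11. In numbers 1 to 11 alone they were 388 and 586, and in numbers 12 to 23 alone 711 and 1454.

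**Figure D5:**
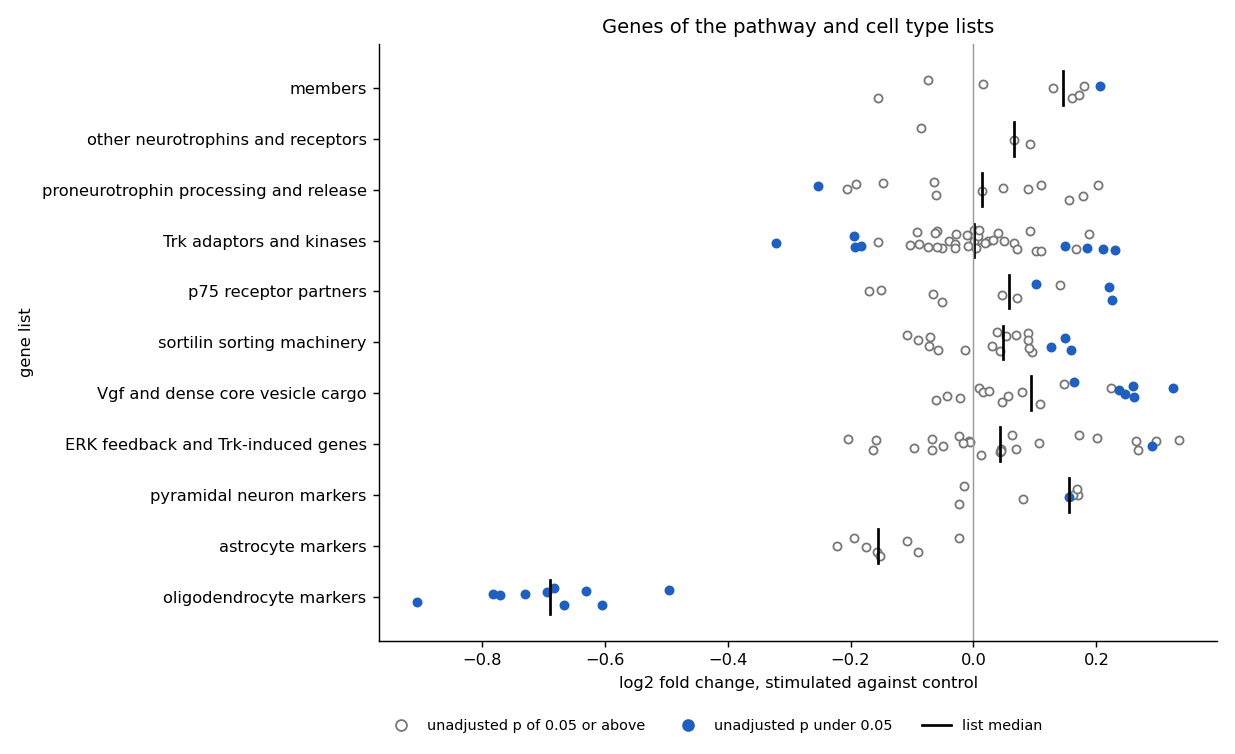
Log2 fold change, stimulated against control, on the horizontal axis for each tested gene of the lists on the vertical axis, with filled points at an unadjusted p under 0.05, open points at 0.05 or above and a black bar at the list median. The medians of the pathway lists lie between 0.00 and 0.14, and that of the oligodendrocyte markers at -0.69, or -0.11 without controls 9 and 11.

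The same fit gave the marker lists of the cell types in the tissue. All 10 oligodendrocyte markers were lower in stimulated mice at an unadjusted p under 0.05, with a median of -0.69, none at an adjusted p by edgeR, and their median was 0.04 in numbers 1 to 11 and -1.31 in numbers 12 to 23, the run of controls 9 and 11. Without these 2 controls 1 of the 10 markers was called and their median was -0.11. In that fit 0 of the 8 genes were called at an unadjusted p, against 8.16% of all genes. Sorcs1 was then at 0.17 (p = 0.0888), Sorcs3 at 0.10, Ntrk3 at 0.09, Bdnf at 0.07 and Ntf3 at -0.27. Of 7 pyramidal neuron markers 5 were higher, 1 of them, Slc17a7, at an unadjusted p under 0.05 (0.16, p = 0.0177), with a median of 0.16, and of 7 interneuron markers 5 were higher, Slc32a1 (0.31, p = 0.00513) and Sst (0.24, p = 0.0420) at an unadjusted p under 0.05. Of 5 tested markers of the choroid plexus 2 were higher and 3 lower, with Ttr at -1.88 (p = 0.00165, 42 to 4480 counts per library) and Clic6 at -1.17 (p = 0.00534) lower at an unadjusted p under 0.05. All 7 vascular markers were below 0, with a median of -0.08 and 1 called (Rgs5, -0.25, p = 0.0147), as were all 4 oligodendrocyte progenitor markers, with a median of -0.10 and 0 called. Of 6 microglia markers 4 were above 0, and of 7 striatal projection neuron markers 6, with 0 called in either list. The part of these cell types in the differences of the 8 genes was not tested.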

How the data were processed

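Bulk ACC RNA of 22 mice was amplified with the SMARTSeq v4 kit and sequenced as single-end reads of 50 bases. According to the submitters' processing notes, the authors used cutadapt 1.10, STAR 2.5.3a on mm10 and HTSeq 0.6.1p1, with Ensembl release 95 for the counting. Whether strand was used is not given in the sources used here. The authors deposited whole-number counts per gene and mouse, which were the only values analysed. They also deposited a size-factor-scaled signal, from which depth is lost, and their own DESeq2 1.22.1 log2 fold changes and p-values, which were not used here. The table had 0 other columns of per-sample values. RNA integrity and batch were covariates of the study, which lists them by sample; they are not in the labels and were not used here.

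Counts were fitted with edgeR 4.0.16 in R 4.3.3 (TMM, glmQLFit and glmQLFTest, run of library numbers and group), and 17524 genes reached the minimum of 10 counts in 10 or more mice. P-values were adjusted over all of these by Benjamini-Hochberg. Unadjusted calls are at p under 0.05. Standard errors were derived from the log2 fold change and the F statistic, and intervals use 19 residual degrees of freedom in the fit of all mice. Log2 CPM used a prior count of 2. RPKM used exon lengths of GENCODE M21, where 37772 gene identifiers were found. Alternatives were DESeq2 1.42.0, limma 3.58.1 voom, sva 3.50.0 with 1 surrogate variable, other count minimums, each run alone, and fits with mice left out. The fits without controls 1 to 3 and with the mitochondrial share were added after seeing the data. Permutation tests were exact for ratios and used 100000 resamples for correlations. The code was tested on simulated data. Same-numbered mice are different animals, so the numbers were not taken as pairs. Their deviations from the group means, with the run difference left in, correlated at -0.37 to 0.63.

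The series is described as 23 samples, its groups sum to 22, and library number 7 is missing. Each sample is a mouse, and p-values measure the spread between mice. The genes and lists were chosen with earlier results of these data known, and the named genes are the 8, the rest of their family, the 2 genes of each list with the smallest p, and the 3 genes most like each of the 8. A few genes that this rule names are not reported here. Depth ranged from 23090483 to 43668462 counts.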

Additional observations from a re-analysis of the deposited data

Results flagged for a closer look

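Of 48 combinations of gene and group examined for a mouse far from the others, 1 stood out, where chance gives about 1 in 20. For Ntrk2, control 9 had 590.4 CPM, below the other 5 controls of library numbers 12 to 23 at 716 to 780.4 CPM, and its gap to the nearest of them was 0.69 of the range of the group on the log2 scale. Control 9 is also the mouse with the highest summed oligodendrocyte markers (19861 CPM), and it had the lowest Bdnf, Ntrk3 and Sorcs3 levels of those controls (36.8, 64.5 and 44.4 CPM). Without it the log2 fold change of Ntrk2 was -0.10 and that of Ntrk3 0.12. The part of oligodendrocyte RNA in these levels was not tested.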

How the results depend on the processing

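None of the 8 genes passed an adjusted p for stimulation in edgeR, DESeq2 or voom, under any alternative run here. Leaving out each mouse in turn, the log2 fold change ran from 0.08 to 0.17 for Bdnf, -0.23 to -0.05 for Ntf3, -0.10 to -0.05 for Ntrk2, 0.12 to 0.21 for Ntrk3, -0.022 to 0.046 for Sort1 (below 0 in 3 of 22 fits), 0.16 to 0.24 for Sorcs1, 0.13 to 0.23 for Sorcs3 and 0.14 to 0.22 for Vgf. The members called at an unadjusted p then numbered 0 to 3, the genes called 1561 to 2489, and those at an adjusted p 0 to 1. Signs turned in numbers 1 to 11 alone (Bdnf -0.054, Ntrk3 -0.034, Sorcs3 -0.033), and without controls 1 to 3 in that run also for Sort1 (-0.15), Sorcs1 (-0.14), Vgf (-0.0087) and Ntrk2 (0.019), with Bdnf at -0.29, Ntrk3 at -0.28 and Sorcs3 at -0.39. Sort1 was at -0.035 without controls 1 to 3 over both runs and at -0.048 with the mitochondrial share, and Ntrk2 was at 0.0043 with group alone. The interaction without controls 1 to 3 was -0.030 for Ntrk2 and 0.18 for Vgf. The causes were not tested.

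The count of 1 member at an unadjusted p became 0 with group alone, in numbers 1 to 11, without controls 9 and 11, without controls 1 to 3 and with the mitochondrial share, 2 with voom (2860 of all genes), 3 in numbers 12 to 23, all higher, and 3 in numbers 1 to 11 without controls 1 to 3, all lower (2944 of all genes). For the interaction it became 4 without controls 1 to 3 (2885 of all genes). Nothing is read from these last calls, since the 3 mice were set aside after their levels had been seen. Genes at an unadjusted p numbered 632 with group alone, 974 in numbers 1 to 11 and 3687 with no count minimum, against 2015. Genes at an adjusted p numbered 33 with DESeq2, 1 with voom, 1 without controls 9 and 11 and 5 in numbers 1 to 11 without controls 1 to 3. Between the runs, Bdnf was at 0.10 in stimulated mice alone, and Ntrk3 at -0.10 in controls alone and 0.27 in stimulated mice alone, where it passed (edgeR adjusted p = 0.0398). The group difference in the log2 ratio of Bdnf to Sort1 was -0.017 when taken over all mice without regard to run. Correlated pairs with values centred on the group means numbered 3 in numbers 12 to 23 and 2 in both runs, and without controls 1 to 3 they numbered 0 in the first run, 2 in the second, where the adjustment changed with the first run's p-values, and 0 in both. Pathway genes with group alone numbered 4 higher and 0 lower, against 175 and 457 of all genes. The other 211 values kept their direction and their side of the threshold, or stayed within 1.5 times for a count.

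With the replicate block in place of the run over 10 same-numbered pairs, of which 2 (numbers 5 and 6) join mice of different runs, so that run and group are partly mixed, 4 members were called at an unadjusted p (Sorcs1 0.32, Sorcs3 0.34, Vgf 0.32 and Ntf3 -0.41), 1291 genes at an unadjusted p and 0 at an adjusted p. Ntrk2 turned to 0.068 under the block, and the group difference in the log2 ratio of Bdnf to Sort1 to -0.17 in paired differences. The deviations of same-numbered mice correlated at 0.31 on average, against -0.03 for other pairs, and 2 of 10 stimulated mice correlated best with their own number. The run difference was left in these deviations and most same-numbered pairs share a run, so the values cannot tell pairing from a shared run.

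Depth limits Ntf3, with 25 to 174 counts, more than the other members, which had at least 465 counts in every library.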
